A study of Homo sapiens with 16 samples.

Results

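The effect of the kinase inhibitor sorafenib on RNA levels was measured in MDA-MB-231, an oestrogen receptor-negative human line from a breast carcinoma. It was taken over 16 RNA-seq libraries as the difference between the 8 libraries with the drug and the 8 without it, whatever the time and whatever the second agent. The 8 libraries with sorafenib came from 4 groups of 2: sorafenib at 1 µM alone for 8 h or for 24 h, and sorafenib for 12 h followed by the DNA-methylating agent methyl methanesulfonate (MMS), collected 8 h or 24 h after MMS was added. The 8 libraries without it came from the 4 matching groups of 2: the solvent DMSO at 8 h and 24 h, and MMS at 8 h and 24 h. For MMS the labels of the samples give 40 µM, whereas the text of the series gives 40 µg/mL. Cells that had both agents had carried sorafenib 12 h longer than cells on sorafenib alone at the same labelled time, so that a difference of the sorafenib effect by MMS cannot be told apart from one by the length of exposure. All libraries were TruSeq libraries of total RNA from sub-confluent dishes of this single line in medium with 10% serum. The members of a group came from 2 independent experiments, which the start of the sample titles (MDA231 or MDAMB231) may mark. Each library with sorafenib has 1 matched library without it, of the same time, MMS state and title start, which gives 8 matched pairs. The title names inflammation and angiogenesis under low-dose sorafenib and alkylating agents. The comparison asks which genes sorafenib moved in all of these settings.

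Sorafenib is a multikinase inhibitor that binds RAF kinases and the receptors for vascular endothelial growth factor (VEGF) and platelet-derived growth factor (PDGF). RAF kinases pass the signal of active RAS to MEK and then to the kinase ERK. ERK switches on transcription factors of the FOS, EGR and ETS families, and with them genes that restrain the pathway again. These include the phosphatases of the DUSP family, which remove the activating phosphates from ERK, and the Sprouty and SPRED proteins, which act upstream of RAF. In tumour cells with an active pathway ERK also drives secreted cytokines, matrix proteases and angiogenic factors.

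Each file held read counts for 23228 gene rows, and reads in genes came to 16777363 to 26381349 per library with sorafenib and 16774156 to 26448212 without. The line's markers matched its label: vimentin (VIM) lay between 1425 and 2489 CPM with sorafenib and between 1532 and 2477 without, whereas the oestrogen receptor gene ESR1 had at most 5 reads in any library. Levels are given below as CPM, read counts scaled to a common library size with TMM factors. Of the markers of fibroblasts and endothelium 7 of 12 and of those of immune cells 4 of 8 passed the filter on low counts. The summed level of these lists was 21.8 to 47.9 CPM with sorafenib and 15.7 to 39.8 CPM without for the 12 fibroblast and endothelial genes. It was 120 to 227 CPM with sorafenib and 118 to 265 CPM without for the immune genes, with the T cell gene CD3E at no more than 2 reads in any library. One library stood apart: replicate 1 of sorafenib followed by MMS at 8 h. It deviated from a fit with sorafenib, time, MMS, time by MMS and title start by 0.166 (residual SD on the log2 scale). The other 15 deviated by 0.0799 to 0.123. That fit holds 1 sorafenib effect for all conditions, so a departure from a common effect also counts as deviation. It also had the highest share of reads with several alignments, 31.5%. The part of this library in the fits over all libraries was measured by leaving it out, and those values stand beside results it moved. P-values measure the spread between these libraries.

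Sorafenib changed 2207 of the 13948 genes tested (15.8%), 1191 higher (8.54%) and 1016 lower (7.28%), by edgeR's quasi-likelihood test with Benjamini-Hochberg adjusted p under 0.05 in a model with time, MMS, time by MMS and title start. All log2 changes, standard errors (SE) and adjusted p-values below come from this fit unless another is named, with n = 8 libraries on each side, and a gene is called when it passes that threshold. Most changes were small: 1772 of the called genes changed by less than 1.5-fold, and the median size of a called change was 0.29 on the log2 scale. The large changes were mostly falls, since 91 genes were called at least 2-fold lower (0.652%) and 48 at least 2-fold higher (0.344%). The direction was the same in all 8 matched pairs for 1271 of the called genes. Over all genes tested 691 were lower in all 8 pairs (4.95%) and 753 higher (5.40%). In 22 genes all 8 levels with sorafenib lay below all 8 without (0.158%), and in 8 genes all lay above (0.0574%). Without the library that stood apart 2508 genes were called. In such bulk libraries fewer cells with a transcript and less of it per cell cannot be told apart.

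Against 15.8% of all genes, 10.0% of the tested genes for kinases that sorafenib binds and 22.2% of those of the cascade below them were called at the RNA level. Of 10 tested genes for its known target kinases 1 was called, the receptor PDGFRB, which had 1.68 to 12.1 CPM with sorafenib (median 3.83) and 1.02 to 7.42 CPM without (median 2.42). The groups overlapped, the level was higher in 7 of 8 pairs, and the log2 change was 0.59 ± 0.13, adjusted p = 0.00285. BRAF, a RAF kinase gene, did not pass the threshold (log2 change 0.02 ± 0.09, adjusted p = 0.916). The VEGF receptor genes KDR (log2 change 0.12 ± 0.09, adjusted p = 0.466) and FLT1 (log2 change -0.37 ± 0.14, adjusted p = 0.0967) were not called. Among 18 genes from RAS to ERK 4 were called, of which RASA1, a GTPase-activating protein that switches RAS off, changed most and fell. It had 47.3, 75.5 and 108 CPM at the lowest, median and highest library with sorafenib, against 58.6, 95.1 and 142 CPM without (log2 change -0.28 ± 0.04, adjusted p = 1.78e-05), and was lower in 8 of 8 pairs although the groups overlapped.

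The genes that ERK activity turns on fell together. Of 27 genes that are known feedback regulators or transcriptional targets of ERK, all tested, 22 were called lower and 0 higher, against 7.28% lower and 8.54% higher among all genes. Their median log2 change was -0.62, against 0.00 over all genes tested, and 20 of the 27 were lower in all 8 pairs, against 4.95% of all genes. The 5 members not called lay between -0.27 and 0.22, among them ETV5 (log2 change -0.17 ± 0.06, adjusted p = 0.0665) and the cyclin gene CCND1 (log2 change -0.14 ± 0.06, adjusted p = 0.0952). Without the library that stood apart 25 of the 27 were called lower.

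Among the phosphatases, DUSP4, which dephosphorylates ERK in the nucleus, had 219, 289.6 and 459 CPM (lowest, median and highest) with sorafenib, against 415, 542 and 912 CPM without. The groups overlapped across conditions but not within them: sorafenib and MMS gave 248, 257, 232 and 219 CPM, against 415, 436, 449 and 444 CPM with MMS alone. The log2 change of DUSP4 was -0.94 ± 0.04, adjusted p = 2.69e-12, and it was lower in 8 of 8 pairs. DUSP6, which acts on ERK in the cytoplasm, had 84.5, 109 and 147 CPM with sorafenib and 137, 266 and 425 CPM without (log2 change -1.19 ± 0.11, adjusted p = 1.4e-07). All libraries with sorafenib but 2 lay below the lowest library without it. DUSP5, a nuclear ERK phosphatase, fell to 55.4% of its level without the drug (log2 change -0.85 ± 0.09, adjusted p = 1.56e-06). The inhibitors upstream of RAF moved the same way. SPRY4 had 45.04, 52.8 and 65.8 CPM with sorafenib and 70.1, 98.3 and 107 CPM without, with every library of the first set below every library of the second (log2 change -0.797 ± 0.08, adjusted p = 2.96e-07). SPRY2 (log2 change -0.57 ± 0.06, adjusted p = 1.11e-06), SPRED1 (log2 change -0.46 ± 0.05, adjusted p = 3.15e-06) and SPRED3 (log2 change -1.05 ± 0.18, adjusted p = 0.000341) were lower in 8 of 8 pairs each.

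Other members of the list, among them transcription factors and ligands, also fell. IER3, an immediate early gene that acts on cell survival, had 355, 457 and 575 CPM with sorafenib and 628, 823 and 1156 CPM without, again with no overlap (log2 change -0.87 ± 0.04, adjusted p = 1.37e-11). PHLDA1, a gene with a pleckstrin homology-like domain, fell to 55.8% (log2 change -0.84 ± 0.04, adjusted p = 1.37e-11). Among them were the ETS factors ETV1 (log2 change -0.66 ± 0.08, adjusted p = 4.11e-06) and ETV4 (log2 change -0.59 ± 0.08, adjusted p = 3.3e-05). They were lower in 8 of 8 pairs. The AP-1 subunit FOSL1 (log2 change -0.43 ± 0.07, adjusted p = 6.81e-05) and the growth regulator MYC (log2 change -0.29 ± 0.05, adjusted p = 0.000102) were also lower in 8 of 8 pairs. The plot of the ERK output genes shows the change within each condition. A test of any difference among the 4 conditions passed for DUSP6 (adjusted p = 4.61e-05), and did not pass for FOS (0.193), DUSP4 (0.378), PHLDA1 (0.471) or IER3 (0.868).

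**Figure D1:**
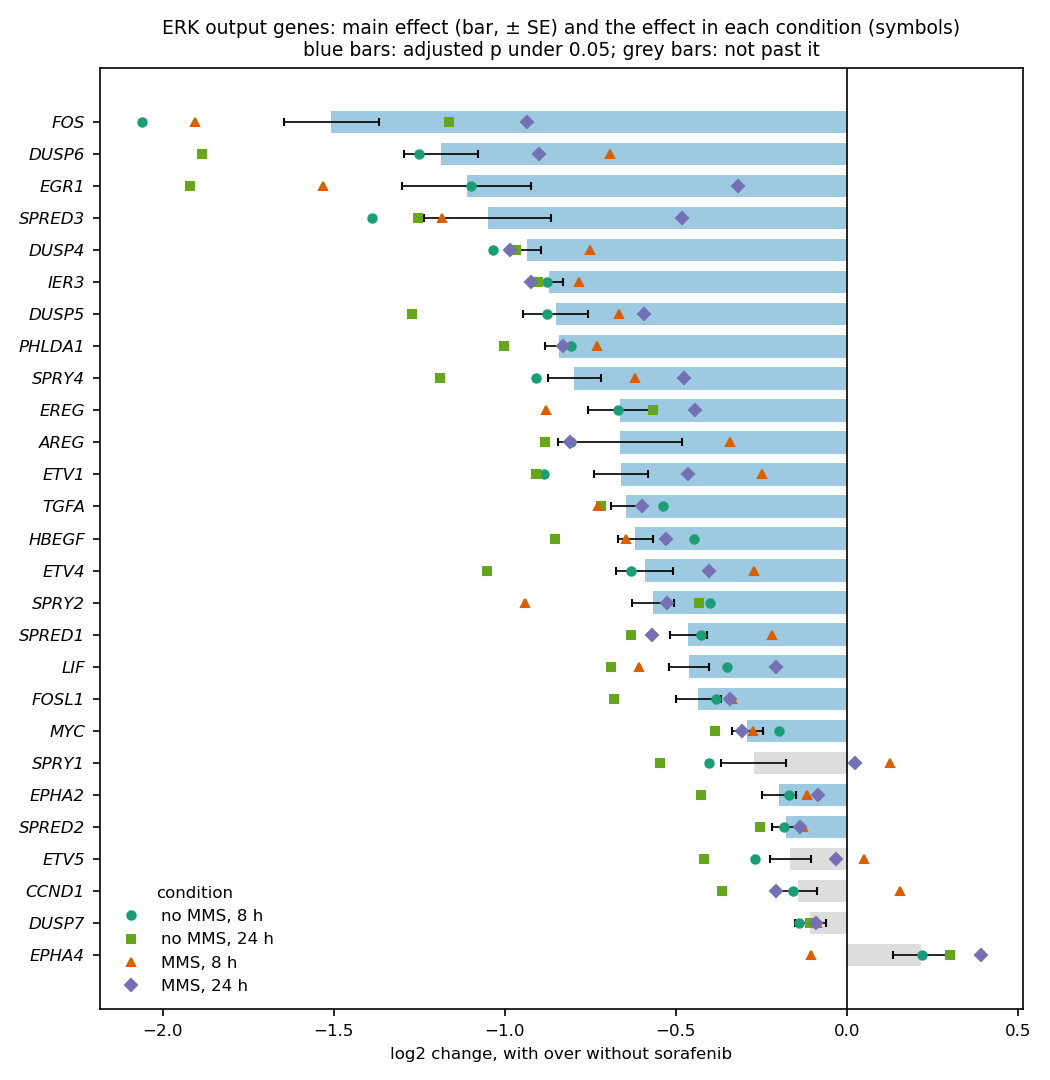
Log2 change with over without sorafenib (horizontal axis) of the 27 ERK output genes (rows); bars are the main effect ± SE over 8 against 8 libraries, blue where adjusted p is under 0.05 and grey where it is not, and symbols are the effect within each of the 4 conditions. The 22 called members lie left of 0, and the 5 others lie between -0.27 and 0.22.

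Of 30 immediate early genes, the first wave of transcripts after growth factor signals, 15 were called lower and 0 higher. Among all genes 7.28% were called lower and 8.54% higher. The median log2 change of the 30 was -0.35. The largest fall was in ARC, known as a neuronal activity gene (log2 change -2.48 ± 0.24, adjusted p = 2.17e-07). It changed by -1.205 at 8 h and -0.54 at 24 h without MMS, and -3.52 at 8 h and -1.97 at 24 h with MMS. With at most 0.308 CPM with sorafenib and 0.79 CPM with DMSO the changes without MMS were not called (adjusted p = 0.314 at 8 h and 0.797 at 24 h), and ARC was lower in 7 of 8 pairs. The difference by MMS did not pass (adjusted p = 0.206). Next came EGR3, a zinc finger factor of the EGR family, with 0, 0.0468 and 0.436 CPM with sorafenib against 0.166, 0.321 and 2.300 CPM without (log2 change -2.201 ± 0.33, adjusted p = 5.87e-05). FOS, the AP-1 subunit, had 0.657, 1.73 and 5.51 CPM with sorafenib and 2.53, 3.86 and 20.3 CPM without (log2 change -1.51 ± 0.14, adjusted p = 1.33e-07), and its relative FOSB changed by -1.097 ± 0.13, adjusted p = 4.05e-06. EGR1 was lower in 7 of 8 pairs (log2 change -1.11 ± 0.19, adjusted p = 0.000230). KLF6, a zinc finger tumour suppressor, and the 14 other members not called lay between -0.41 and 0.11. The list shares FOS, FOSL1, EGR1, IER3 and MYC with the ERK output genes.

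Of 12 tested ligands, receptors and regulators of the EGF receptor family 5 were called lower and 1 higher. The shares of all genes were 7.28% lower and 8.54% higher. All 4 ligands called were lower. They were TGFA (log2 change -0.65 ± 0.05, adjusted p = 3.27e-09) and HBEGF (log2 change -0.62 ± 0.05, adjusted p = 2.53e-08). The others were EREG (log2 change -0.66 ± 0.09, adjusted p = 2.95e-05) and AREG (log2 change -0.66 ± 0.18, adjusted p = 0.0153). All 4 also belong to the ERK output list. HBEGF had 77.3, 81.9 and 116 CPM with sorafenib and 111, 142 and 159 CPM without, and 6 of the 8 libraries with the drug lay below all without it. ERRFI1, which binds and inhibits the EGF receptor, fell to 52.8% (log2 change -0.92 ± 0.06, adjusted p = 3.27e-09). ERBB2, the receptor also known as HER2, was the member that rose, in 8 of 8 pairs (log2 change 0.31 ± 0.04, adjusted p = 6.92e-06).

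Secreted inflammatory factors were among the largest changes. Of 27 tested cytokines and related genes 12 were called lower and 6 higher (66.7%, against 15.8% of all genes). The median was -0.27, and 11 of the 12 falls held in all 8 pairs. IL1B, which encodes interleukin 1β, a main trigger of inflammation, had 3.02, 9.64 and 19.04 CPM with sorafenib (lowest, median and highest) and 38.6, 68.4 and 156 CPM without. The highest library with the drug lay below the lowest without it, and the level fell to 11.9% (log2 change -3.07 ± 0.09, adjusted p = 1.74e-14). Its relative IL1A had 3.43, 7.17 and 14.1 CPM with sorafenib and 15.05, 34.01 and 49.5 CPM without, again with no overlap (log2 change -2.104 ± 0.09, adjusted p = 5.53e-12). CSF3, the granulocyte growth factor, had 5.73, 10.9 and 20.9 CPM with sorafenib and 41.95, 60.5 and 82.3 CPM without (log2 change -2.42 ± 0.13, adjusted p = 3.85e-11). IL11, a cytokine of the IL6 family, had 43.1, 76.04 and 108 CPM with sorafenib and 112, 186 and 298 CPM without (log2 change -1.403 ± 0.07, adjusted p = 3.85e-11). In both genes the 8 libraries with the drug lay below the 8 without it.

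Other cytokines and chemokines fell as well. IL24, a cytokine of the IL10 family, fell to 25.96% (log2 change -1.95 ± 0.16, adjusted p = 2.3e-08), and PTGS2, the inducible cyclooxygenase that makes prostaglandins, fell to 31.2% (log2 change -1.68 ± 0.12, adjusted p = 3.04e-09). The neutrophil chemokines CXCL3 (log2 change -1.01 ± 0.10, adjusted p = 3.44e-07) and CXCL2 (log2 change -0.77 ± 0.11, adjusted p = 4.63e-05) were lower in 8 of 8 pairs. So was IL8, now named CXCL8 (log2 change -0.73 ± 0.09, adjusted p = 5.04e-06), and CXCL1 was lower in 7 (log2 change -0.39 ± 0.07, adjusted p = 0.000413). LIF had 58.7, 71.9 and 76.8 CPM with sorafenib and 82.6, 97.7 and 111 CPM without, with no overlap (log2 change -0.46 ± 0.06, adjusted p = 7.94e-06). CSF2, the granulocyte-macrophage growth factor, fell too (log2 change -0.501 ± 0.07, adjusted p = 1.23e-05). IL6 was not called. It had 34.00, 62.8 and 123 CPM with sorafenib and 52.4, 76.5 and 116 CPM without, and was lower in 6 of 8 pairs (log2 change -0.24 ± 0.10, adjusted p = 0.111). It gave a log2 change of 0.06 in the MDA231 libraries alone against -0.54 in the MDAMB231 libraries. It passed in the MDAMB231 libraries alone (adjusted p = 0.000307), in the libraries with MMS alone (0.0280), with 1 mean per group (0.0444) and without replicate 1 of sorafenib at 24 h (0.0181), but in no other fit that left out 1 library. The 6 members called higher included IL18 (log2 change 0.86 ± 0.06, adjusted p = 3.27e-09), of the IL1 family, which had 37.9, 66.1 and 108 CPM with sorafenib and 21.8, 33.96 and 63.6 CPM without. It was higher in 8 of 8 pairs although the groups overlapped. IL15 (log2 change 0.51 ± 0.11, adjusted p = 0.00240) and CXCL16 (log2 change 0.56 ± 0.10, adjusted p = 0.000605) were also higher. So were IL32 (log2 change 0.38 ± 0.06, adjusted p = 5.66e-05) and CSF1 (log2 change 0.34 ± 0.08, adjusted p = 0.00755). NF-κB, a main switch of many of these cytokines, has feedback targets of its own. Of 23 tested genes of that pathway 3 were called lower and 5 higher (34.8%, against 15.8% of all genes), with a median of 0.05. The falls included BCL2A1, a BCL2 relative (log2 change -1.76 ± 0.15, adjusted p = 5.53e-08). They also included TNFAIP3, the inhibitor known as A20 (log2 change -0.39 ± 0.06, adjusted p = 6.6e-05). The rises included SOD2 (log2 change 0.29 ± 0.05, adjusted p = 0.000156) and ICAM1 (log2 change 0.23 ± 0.04, adjusted p = 0.000682), both higher in 8 of 8 pairs.

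**Figure D2:**
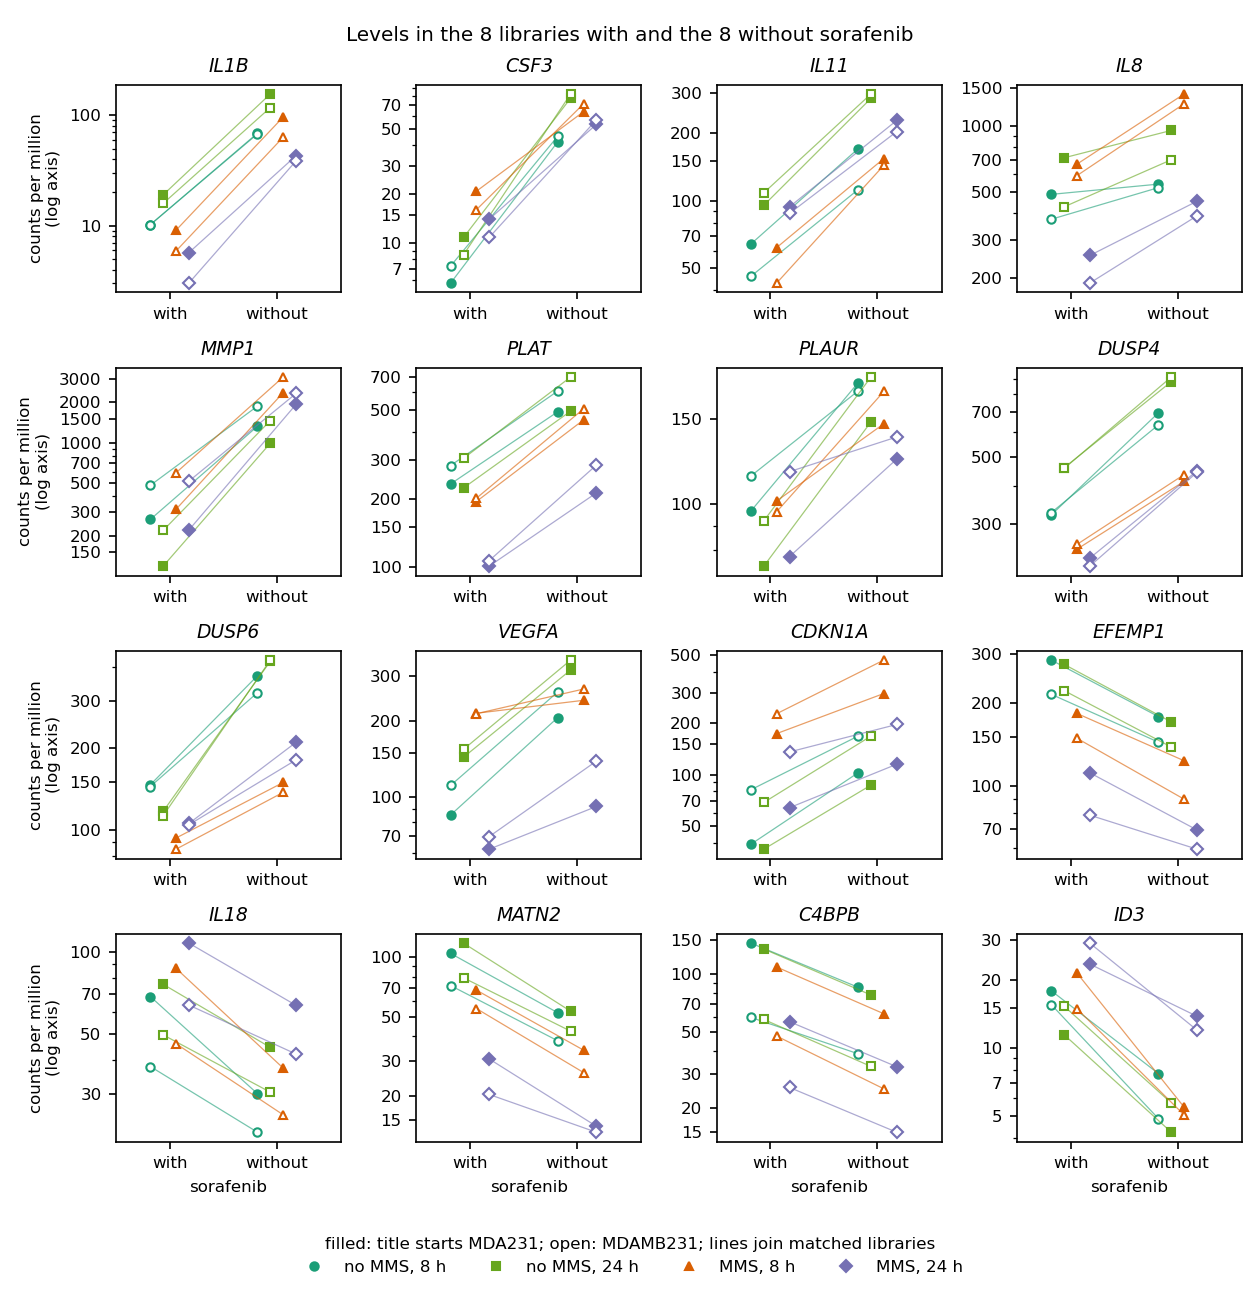
CPM (log axis) of 16 genes in the 8 libraries with sorafenib (left in each panel) and the 8 without (right); colour and symbol give the condition, filled and open symbols the title start, and lines join matched libraries. IL1B, CSF3, IL11, MMP1 and PLAUR have all 8 libraries with sorafenib below the 8 without, and every line of the 16 panels slopes in its gene's direction.

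The heptamer TGANTCA, where N is any base, was searched for as a site of AP-1, the dimer of FOS and JUN proteins. Promoters of cytokine genes and of the urokinase receptor gene PLAUR, all of which fell, are shown here because they hold it. In RefSeq's promoter table (assembly GRCh38.p14, whereas the counts were made on hg19; 250 bases before to 50 after the start, 300 in all) the heptamer, which is its own reverse complement as a pattern, lies in 7.71% of 35116 windows. Among genes tested 10723 matched a window by symbol or older symbol, and 7.26% of them had the heptamer in at least 1 window. The share was 12.8% of 780 genes called lower, 18.6% of 59 called at least 2-fold lower, 8.48% of 932 called higher and 6.06% of 33 called at least 2-fold higher, which is a description with no test. By list it was 16.7% of 18 cytokine genes, 17.6% of 17 matrix protease genes and 11.1% of 18 ERK output genes. Most members of these lists thus lacked the heptamer in these windows. The shares count any base at N, such as TGAATCA in MMP10, SERPINB2 and TFPI2, whereas the windows printed below hold TGACTCA or TGAGTCA. The windows below are written 5′ to 3′ on the gene's strand with the heptamer in capitals. They are those of IL1A (chr2:112784444-112784743, minus strand), IL11 (chr19:55370414-55370713, minus strand), IL8 (chr4:73740319-73740618, plus strand) and PLAUR (chr19:43670120-43670419, minus strand).
IL1A: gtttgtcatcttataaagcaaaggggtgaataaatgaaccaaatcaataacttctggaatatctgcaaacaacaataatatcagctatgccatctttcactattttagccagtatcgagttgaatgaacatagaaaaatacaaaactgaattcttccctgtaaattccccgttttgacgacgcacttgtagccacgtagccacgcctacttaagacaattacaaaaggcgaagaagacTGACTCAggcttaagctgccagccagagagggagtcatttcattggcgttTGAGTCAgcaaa
IL11: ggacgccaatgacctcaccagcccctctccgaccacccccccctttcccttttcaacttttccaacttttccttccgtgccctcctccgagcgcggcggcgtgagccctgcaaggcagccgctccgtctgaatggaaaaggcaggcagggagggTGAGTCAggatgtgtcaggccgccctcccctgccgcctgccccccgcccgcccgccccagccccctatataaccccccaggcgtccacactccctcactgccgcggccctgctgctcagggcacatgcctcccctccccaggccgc
IL8: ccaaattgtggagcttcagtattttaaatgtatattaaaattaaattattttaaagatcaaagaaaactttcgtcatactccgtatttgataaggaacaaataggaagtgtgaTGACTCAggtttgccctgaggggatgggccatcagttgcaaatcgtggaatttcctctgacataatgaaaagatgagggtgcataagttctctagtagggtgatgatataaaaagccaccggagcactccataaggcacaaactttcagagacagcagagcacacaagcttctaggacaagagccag
PLAUR: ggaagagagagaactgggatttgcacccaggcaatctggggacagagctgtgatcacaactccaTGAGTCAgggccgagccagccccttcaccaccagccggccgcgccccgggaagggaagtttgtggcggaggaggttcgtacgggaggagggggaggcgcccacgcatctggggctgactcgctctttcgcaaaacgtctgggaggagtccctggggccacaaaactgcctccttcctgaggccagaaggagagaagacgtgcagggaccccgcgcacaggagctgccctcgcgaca
IL1A has 2 heptamers in this window, the others 1 each. The 4 genes carrying them fell to 23.3%, 37.8%, 60.4% and 60.95% of their level without sorafenib, in the order printed. A match in these letters does not show that the factor bound there.

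The matrix proteases and the plasminogen system fell with the cytokines. Of 27 tested genes of this kind 12 were called lower and 6 higher (66.7%, against 15.8% of all genes), with a median of -0.36. MMP1, the interstitial collagenase, had 118, 291 and 594 CPM with sorafenib and 990.4, 1908 and 3104 CPM without, and all libraries with the drug lay below all without it (log2 change -2.58 ± 0.10, adjusted p = 1.08e-12). MMP3, or stromelysin 1, fell to 15.9% (log2 change -2.66 ± 0.14, adjusted p = 3.67e-11). MMP10, or stromelysin 2, fell to 17.9% (log2 change -2.48 ± 0.26, adjusted p = 7.89e-07), and MMP9, a gelatinase, to 20.6% (log2 change -2.28 ± 0.16, adjusted p = 4.36e-09). MMP3 and MMP9 varied widely with the condition, from 5.97 to 94.2 CPM and 0.227 to 36.7 CPM without sorafenib, and were lower in 8 of 8 pairs. In a fit with 1 mean per group the fall of MMP9 was not called at 24 h with MMS (-1.28, adjusted p = 0.26). MMP14, the membrane-bound protease that activates others, changed less (log2 change -0.45 ± 0.06, adjusted p = 8.07e-06).

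In the plasminogen system PLAT, the tissue-type activator, had 101, 214 and 304 CPM with sorafenib and 214, 492 and 699.9 CPM without (log2 change -1.19 ± 0.05, adjusted p = 1.16e-12). The groups overlapped across conditions, and within each pair the level with the drug was lower. PLAU, the urokinase gene, changed by -0.81 ± 0.08, adjusted p = 1.82e-07. Its receptor gene PLAUR had 74.1, 96.3 and 117 CPM with sorafenib and 124, 159.6 and 183 CPM without, with no overlap (log2 change -0.71 ± 0.07, adjusted p = 3.15e-07). SERPINB2, an inhibitor of both activators, fell to 25.8% (log2 change -1.95 ± 0.10, adjusted p = 3.67e-11). The protease inhibitors TIMP1 (log2 change -0.36 ± 0.06, adjusted p = 0.000100) and TIMP3 (log2 change -0.46 ± 0.07, adjusted p = 0.000110) fell too, although the fall of TIMP3 was not called at 24 h with MMS (-0.09, adjusted p = 0.783). The members called higher included the lysyl oxidases LOX (log2 change 0.51 ± 0.05, adjusted p = 1.46e-07) and LOXL4 (log2 change 0.58 ± 0.09, adjusted p = 9.3e-05), which cross-link collagen. Of matrix genes outside the list, TFPI2, a matrix-bound serine protease inhibitor, changed by -1.21 ± 0.07, adjusted p = 9.84e-11, and the adhesion-modulating glycoprotein gene TNC by -0.91 ± 0.06, adjusted p = 3.61e-09.

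Among 29 tested angiogenic factors and receptors 11 were called lower and 5 higher (55.2%, against 15.8% of all genes), with a median of -0.15. VEGFA, the main endothelial growth factor, had 62.2, 127 and 214 CPM with sorafenib and 91.8, 251 and 348 CPM without (log2 change -0.86 ± 0.10, adjusted p = 5.04e-06). It was lower in 8 of 8 pairs, and the groups overlapped, with low levels of 91.8 and 139 CPM also under MMS alone at 24 h. ANGPTL4, an inhibitor of lipoprotein lipase that also acts on vessels, fell to 37.2% (log2 change -1.43 ± 0.19, adjusted p = 1.34e-05), and the Notch ligand JAG1 to 64.1% (log2 change -0.64 ± 0.07, adjusted p = 9.16e-07). ESM1, or endocan, which lies outside the list, was among the largest falls of all genes, with 0.211, 1.84 and 14.6 CPM with sorafenib and 2.77, 13.4 and 49.4 CPM without (log2 change -2.43 ± 0.15, adjusted p = 3.56e-10). NRP1, a co-receptor of VEGF, changed by -0.29 ± 0.04, adjusted p = 5.55e-06. The members called higher included SEMA3C (log2 change 0.31 ± 0.04, adjusted p = 7.54e-06), a guidance molecule of the semaphorin family, and EFNA1, an ephrin ligand (log2 change 0.34 ± 0.07, adjusted p = 0.00154), both higher in 8 of 8 pairs.

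Other large falls fell outside the lists. NOX5, a calcium-dependent NADPH oxidase, had 0.183, 0.701 and 1.16 CPM with sorafenib and 0.227, 5.16 and 11.2 CPM without (log2 change -2.92 ± 0.20, adjusted p = 3.27e-09). In a fit with 1 mean per group its fall was not called at 24 h with MMS (-0.78, adjusted p = 0.659). The other changes from that fit were -3.21 at 8 h and -3.35 at 24 h without MMS, and -2.54 at 8 h with MMS. SLCO4A1, an organic anion transporter, was lower in 8 of 8 pairs (log2 change -2.03 ± 0.13, adjusted p = 6.23e-10). So were the cystatins CST1 (log2 change -2.13 ± 0.14, adjusted p = 1.04e-09) and CST4 (log2 change -1.82 ± 0.12, adjusted p = 2.61e-09), which inhibit cysteine proteases. STC1, a secreted glycoprotein (log2 change -1.56 ± 0.08, adjusted p = 6.75e-11), and LOC730755 (log2 change -2.22 ± 0.15, adjusted p = 2.05e-09), whose gene ID RefSeq lists as the keratin-associated protein gene KRTAP2-3, did the same. CST1 and CST4 are close relatives, as are the KRTAP2 genes, and how reads were shared between them is not given in the sources used here.

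Large rises were fewer than large falls. C10orf81, now named PLEKHS1, had 0.621, 4.52 and 8.27 CPM with sorafenib and 0.114, 1.004 and 3.04 CPM without (log2 change 1.98 ± 0.19, adjusted p = 2.52e-07). ATOH8, a helix-loop-helix factor with a small p but a mean count under 50, rose 6.86-fold (log2 change 2.78 ± 0.17, adjusted p = 5.9e-10). OLR1, a scavenger receptor for oxidised lipoprotein, rose 3.03-fold (log2 change 1.599 ± 0.10, adjusted p = 6.78e-10), and the placental alkaline phosphatase gene ALPP 2.75-fold (log2 change 1.46 ± 0.10, adjusted p = 4.39e-09). ALPP has near-identical relatives, so its reads may be shared with them. PDE5A, the phosphodiesterase that degrades cyclic GMP, had 2.93, 5.81 and 10.4 CPM with sorafenib and 1.14, 2.66 and 2.94 CPM without; 7 of the 8 libraries with the drug lay above all without it (log2 change 1.45 ± 0.11, adjusted p = 5.18e-09). CLIC3, a chloride intracellular channel protein (log2 change 1.36 ± 0.16, adjusted p = 4.27e-06), and DIO2, a deiodinase that activates thyroid hormone (log2 change 1.14 ± 0.09, adjusted p = 2.37e-08), were higher in 8 of 8 pairs. The same held for EDN2, an endothelin (log2 change 1.02 ± 0.16, adjusted p = 7.32e-05), and C1R, a complement protease (log2 change 1.02 ± 0.10, adjusted p = 2e-07). It also held for PTPRQ, a receptor phosphatase (log2 change 0.995 ± 0.09, adjusted p = 2e-07). In a fit with 1 mean per group some of these rises were not called with MMS. At 24 h with MMS these included C10orf81 (2.52, adjusted p = 0.0747) and CLIC3 (0.57, adjusted p = 0.633). They also included EDN2 (0.17, adjusted p = 0.913) and C1R (0.84, adjusted p = 0.0536). EDN2 was also not called at 8 h with MMS (1.07, adjusted p = 0.147).

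Among the rises with the smallest p were 3 genes of extracellular proteins. MATN2, a matrilin of the matrix, had 20.3, 70.2 and 118 CPM with sorafenib and 13.1, 35.9 and 53.4 CPM without (log2 change 0.98 ± 0.05, adjusted p = 3.34e-11). C4BPB, a chain of the complement regulator C4b-binding protein, changed by 0.78 ± 0.04, adjusted p = 1.37e-11, and EFEMP1, a fibulin, by 0.63 ± 0.04, adjusted p = 2.51e-10. Levels of these 3 genes varied with the condition and the title start and the groups overlapped, while every pair was higher with the drug.

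Several epithelial genes rose. Of 14 tested markers of luminal breast epithelium 7 were called higher and 0 lower, against 8.54% higher and 7.28% lower among all genes. The median log2 change of the 14 was 0.22. The summed level of the list's 16 genes was 735 to 1140.4 CPM with sorafenib and 675 to 1168 CPM without. CDH1, which encodes E-cadherin, the adhesion molecule of epithelia, had 0.922, 2.31 and 9.29 CPM with sorafenib, against a median of 0.715 CPM and a highest value of 1.72 CPM without (log2 change 2.004 ± 0.19, adjusted p = 2.32e-07). ELF3, an ETS factor of epithelia, had 0.838, 5.43 and 39.7 CPM with sorafenib and 0.3500, 1.94 and 7.81 CPM without (log2 change 1.79 ± 0.16, adjusted p = 9.83e-08). Both were higher in 8 of 8 pairs with overlapping groups. MUC1, an epithelial mucin outside the list, rose 2.33-fold (log2 change 1.22 ± 0.19, adjusted p = 7.3e-05), and the keratin KRT8 changed by 0.24 ± 0.06, adjusted p = 0.00564. In a fit with 1 mean per group MUC1 was not called with MMS at 8 h (0.90, adjusted p = 0.133) or 24 h (0.67, adjusted p = 0.72). ELF3 was not called at 8 h with MMS in that fit (1.24, adjusted p = 0.203). ESR1 and the epithelial factor GRHL2 remained below the filter on low counts.

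Of 30 tested genes of transforming growth factor β signalling and of the mesenchymal state 9 were called higher and 7 lower. That was 53.3% called, against 15.8% of all genes, with a median log2 change of -0.01. ID3, an inhibitor of helix-loop-helix factors that is a known target of bone morphogenetic proteins, had 11.4, 16.7 and 29.1 CPM with sorafenib and 4.24, 5.59 and 13.8 CPM without (log2 change 1.39 ± 0.12, adjusted p = 4.75e-08). Its relative ID1 was higher in 8 of 8 pairs as well (log2 change 0.69 ± 0.18, adjusted p = 0.0103), but its rise differed among conditions (adjusted p = 0.0429). ID1 changed by 0.42 at 8 h and 0.15 at 24 h without MMS, and 1.95 at 8 h and 0.53 at 24 h with MMS, and of these only the change at 8 h with MMS was called. The ligand gene TGFB2 rose 1.599-fold (log2 change 0.68 ± 0.07, adjusted p = 2.97e-07), whereas the receptor genes TGFBR1 (log2 change -0.34 ± 0.04, adjusted p = 4.34e-06) and TGFBR2 (log2 change -0.44 ± 0.06, adjusted p = 1.84e-05) fell. The repressor of E-cadherin ZEB1 fell (log2 change -0.31 ± 0.05, adjusted p = 4.91e-05), and its relative ZEB2 did not pass the threshold (log2 change -0.06 ± 0.05, adjusted p = 0.5099). Without replicate 2 of sorafenib followed by MMS at 8 h 4 members of this list were called lower. The collagen gene COL5A1 rose 1.53-fold (log2 change 0.61 ± 0.06, adjusted p = 1.65e-07). Of 20 targets of the Hippo pathway's factor YAP 8 were called higher and 5 lower (65.0%, against 15.8% of all genes). The log2 changes of the 8 called higher lay between 0.15 and 0.68. The falls included CTGF, a matricellular growth factor gene (log2 change -0.46 ± 0.08, adjusted p = 0.000174), and NT5E, the ectonucleotidase CD73 (log2 change -0.49 ± 0.04, adjusted p = 9.56e-08). Between 2 and 3 were lower when replicate 1 of DMSO at 8 h, DMSO at 24 h, MMS at 24 h, sorafenib at 8 h or sorafenib and MMS at 24 h, or replicate 2 of MMS at 8 h, sorafenib at 8 h or sorafenib at 24 h, was left out.

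In the fibroblast and endothelial list 3 of 7 tested genes were called higher and 2 lower (71.4%, against 15.8% of all genes). LUM, a proteoglycan of connective tissue (log2 change 1.49 ± 0.18, adjusted p = 4.09e-06), COL1A1 (log2 change 0.43 ± 0.09, adjusted p = 0.00134) and PDGFRB were higher. PECAM1, an endothelial adhesion molecule (log2 change -1.35 ± 0.15, adjusted p = 2.24e-06), and CDH5 were lower. The call of CDH5 was lost when any of 8 libraries was left out, with adjusted p up to 0.1905 without replicate 1 of DMSO at 24 h. All of these except COL1A1 and PDGFRB lay below 7 CPM in every library.

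Smaller rises ran through several metabolic and immune lists. Of 26 genes of cholesterol synthesis and uptake 12 were called higher and 0 lower (46.2%, against 15.8% of all genes), with a median of 0.15. They included the sterol enzymes SC4MOL, now named MSMO1 (log2 change 0.35 ± 0.07, adjusted p = 0.000873), and LSS (log2 change 0.23 ± 0.05, adjusted p = 0.00202). The median of this list was 0.209 at 8 h and 0.182 at 24 h without MMS. With MMS it was 0.148 at 8 h and 0.008 at 24 h. Of 38 interferon response genes 12 were called higher and 1 lower (34.2%, against 15.8% of all genes), with a median of 0.13. Among them were IFIT2 (log2 change 0.38 ± 0.05, adjusted p = 2.96e-05) and IFIT3 (log2 change 0.33 ± 0.05, adjusted p = 0.000207), which act in antiviral defence, and the immunoproteasome subunit PSMB9 (log2 change 0.42 ± 0.08, adjusted p = 0.00107). XAF1 had the largest rise of that list (log2 change 0.76 ± 0.17, adjusted p = 0.00377). The rise of XAF1 differed among conditions (adjusted p = 0.0383): the changes were 0.43 at 8 h and 0.49 at 24 h without MMS, and 1.87 at 8 h and 0.19 at 24 h with MMS, and only that at 8 h with MMS was called. Of 32 lysosomal genes 9 were called higher and 1 lower (31.2%, against 15.8% of all genes). The rises included the cholesterol carrier NPC2 (log2 change 0.26 ± 0.04, adjusted p = 2.06e-05), the membrane protein LAMP2 (log2 change 0.23 ± 0.03, adjusted p = 4.75e-05) and the protease CTSD (log2 change 0.29 ± 0.05, adjusted p = 0.000225). The factor MITF, which regulates lysosomal genes and melanocyte genes, rose with them (log2 change 0.300 ± 0.05, adjusted p = 8.97e-05).

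Cell cycle and DNA damage genes mostly changed by small amounts. CDKN1A, the cyclin-dependent kinase inhibitor p21, had 36.7, 75.2 and 227 CPM with sorafenib and 86.9, 168 and 467 CPM without. It was lower in 8 of 8 pairs (log2 change -1.003 ± 0.08, adjusted p = 1.62e-08), whereas GADD45A was higher (log2 change 0.53 ± 0.07, adjusted p = 1.93e-05). Of 42 mitosis genes 8 were called higher (19.0%, against 8.54% of all genes called higher and 15.8% called in either direction) and 0 lower, with a median of 0.07, such as the cyclin CCNA2 (log2 change 0.21 ± 0.04, adjusted p = 0.00104) and the kinesin KIF23 (log2 change 0.22 ± 0.04, adjusted p = 0.000588). That count was 16 without replicate 1 of sorafenib followed by MMS at 8 h, and 5 without replicate 2 of DMSO at 8 h, DMSO at 24 h or sorafenib at 24 h. Of 46 replication genes 10 were called higher, such as the helicase subunit MCM6 (log2 change 0.26 ± 0.04, adjusted p = 0.000192), and 5 lower (32.6% in either direction). The falls included the cyclin CCNE1 (log2 change -0.39 ± 0.05, adjusted p = 1.97e-05), the repressor E2F7 (log2 change -0.36 ± 0.05, adjusted p = 1.68e-05) and the ribonucleotide reductase subunit RRM2 (log2 change -0.25 ± 0.04, adjusted p = 6.55e-05). The count of 5 was 3 without replicate 1 of DMSO at 24 h or of sorafenib and MMS at 24 h, or replicate 2 of MMS at 8 h or of sorafenib at 8 h. Of repair genes 2 of 35 in homologous recombination and the Fanconi pathway were called (5.7%). In base excision repair and direct reversal 3 of 26 were called (11.5%). All of them were higher, against 8.54% of all genes called higher and 15.8% called in either direction. Of 23 genes of the BCL2 family and apoptosis 4 were called lower and 2 higher (26.1%, against 15.8% of all genes). The survival factor MCL1 was among the falls (log2 change -0.29 ± 0.04, adjusted p = 1.36e-05).

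Of 37 hypoxia and glycolysis genes 11 were called lower and 5 higher (43.2%, against 15.8% of all genes), with a median of -0.06. The stress gene NDRG1 fell to 64.4% (log2 change -0.63 ± 0.08, adjusted p = 4.54e-06). The oxygen sensor EGLN3 (log2 change 0.53 ± 0.11, adjusted p = 0.00132) and the hypoxia factor EPAS1 (log2 change 0.26 ± 0.04, adjusted p = 0.000165) rose. Of 27 targets of the oxidative stress factor NRF2 7 were called higher and 2 lower (33.3%, against 15.8% of all genes). The drug exporter ABCC3 was at 0.63 ± 0.10, adjusted p = 8.65e-05, and the reductase AKR1C1 at -1.36 ± 0.21, adjusted p = 7.36e-05. AKR1C1 shares most of its sequence with AKR1C2 and AKR1C3, so its reads are uncertain. CYP1A1, the monooxygenase induced by the aryl hydrocarbon receptor, fell to 38.5% (log2 change -1.38 ± 0.13, adjusted p = 2.96e-07), and TIPARP, another target of that receptor, to 77.3% (log2 change -0.37 ± 0.05, adjusted p = 1.37e-05). The metallothioneins MT1X (log2 change -0.62 ± 0.06, adjusted p = 4e-07) and MT2A (log2 change -0.48 ± 0.08, adjusted p = 0.000130), which bind metals, were lower, and so was the cholesterol exporter ABCA1 (log2 change -0.598 ± 0.11, adjusted p = 0.000397). Several lists lay near or under the 15.8% of all genes. Of 40 ATF4 stress response genes 7 were called, with NUPR1 the largest rise (log2 change 0.68 ± 0.11, adjusted p = 0.000176). Of 26 endoplasmic reticulum stress genes 5 were called, with the sensor ERN1 the largest fall (log2 change -0.47 ± 0.09, adjusted p = 0.000698). Of 76 respiratory chain subunits 2 were called. The 57 ribosomal protein genes lay between -0.14 and 0.14.

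**Figure D3:**
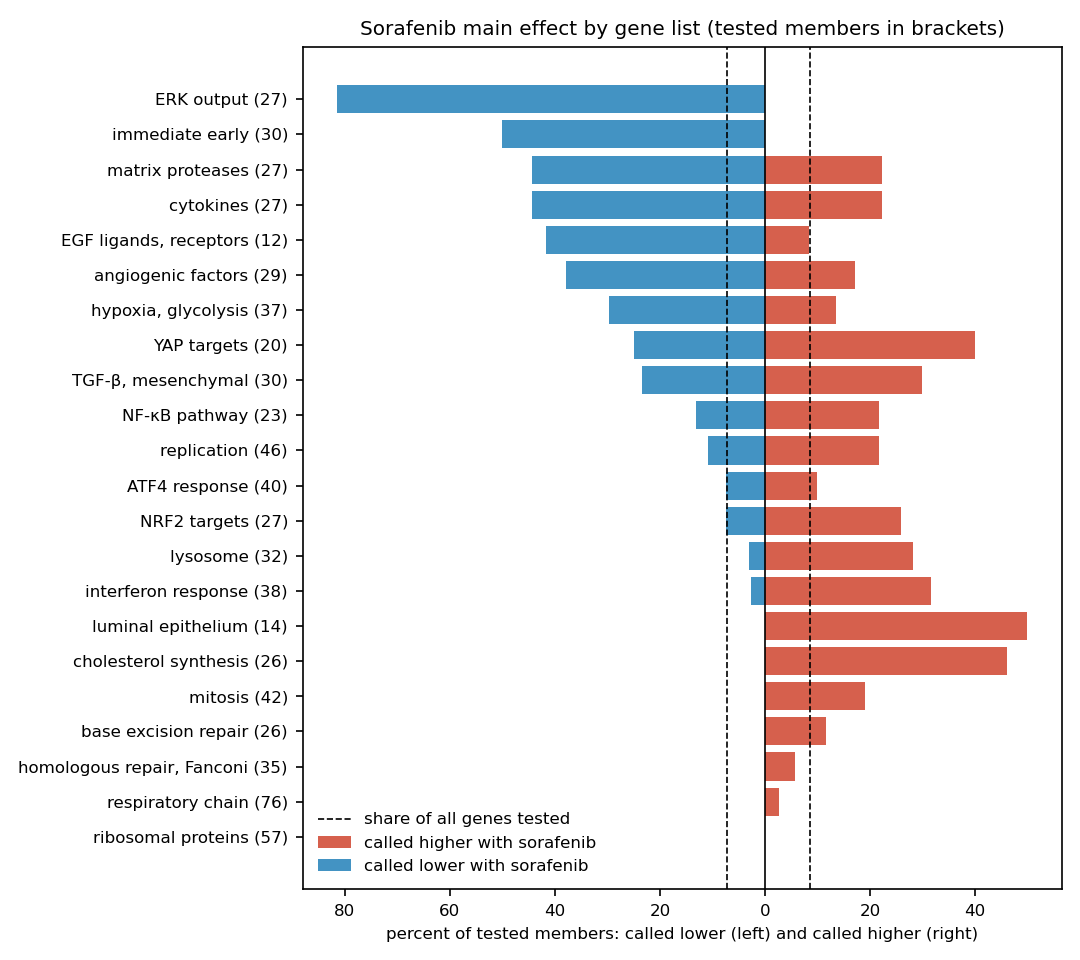
Percent of the tested members of 22 gene lists called lower (left, blue) and called higher (right, red) with sorafenib, with the number of tested members in brackets and dashed lines at the shares of all genes tested, 7.28% lower and 8.54% higher. The ERK output list has 22 of 27 members lower, the largest share in either direction.

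The effect was also measured within each condition. From a fit with 1 mean per group and the title start, 702 genes were called at 8 h without MMS (5.03%), 1001 at 24 h without MMS (7.18%), 1326 at 8 h with MMS (9.51%) and 283 at 24 h with MMS (2.03%). Each such count rests on 2 against 2 libraries, and 1 library could move it by over 1.5 times. Leaving out 1 of them leaves a single library in 1 arm, which is then assumed to vary like the other groups. The first was 235 without replicate 1 of sorafenib at 8 h, 304 and 343 without replicates 1 and 2 of DMSO at 8 h and 344 without replicate 2 of sorafenib at 8 h. The second was 363 without replicate 1 of sorafenib at 24 h and 636 without replicate 2 of DMSO at 24 h. The third was 266 and 518 without replicates 1 and 2 of MMS at 8 h, and 507 and 2830 without replicates 1 and 2 of sorafenib and MMS at 8 h. The 2830 rests on replicate 1 of that group, the library that stood apart, as its only member. The last was 133 without replicate 1 of MMS at 24 h, 107 and 141 without replicates 1 and 2 of sorafenib and MMS at 24 h, and 430 and 431 without replicates 1 and 2 of sorafenib and MMS at 8 h. The median change of the ERK output list was -0.54 at 8 h and -0.72 at 24 h without MMS, and -0.61 at 8 h and -0.47 at 24 h with MMS. IL1B changed by -2.76 at 8 h and -2.96 at 24 h without MMS, and -3.41 at 8 h and -3.23 at 24 h with MMS.

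The libraries were also split into sets of 8 that share no library, and the same term was fitted in each over all genes. The sets with MMS, at 8 h and of MDA231 hold the library that stood apart and were not refitted without it. Among the 8 libraries with MMS 630 genes were called (4.52%), and among the 8 without it 2026 (14.5%). Called in both were 509, or 80.8% of the calls with MMS and 25.1% of those without MMS. All went in the same direction but SYNE2, a nuclear envelope protein gene singled out after its values were seen (log2 change -0.44 with MMS and 0.34 without). Of the genes called with MMS 97.3% had the same sign without it, against 63.5% of all genes. At 24 h 1198 genes were called (8.59%) and at 8 h 1473 (10.6%), with 715 in both, all in the same direction. In the MDAMB231 libraries 1141 genes were called (8.18%) and in the MDA231 libraries 985 (7.06%), with 617 in both, again all in the same direction. IL1B changed by -3.10 in MDAMB231 and -3.03 in MDA231 libraries, and DUSP4 by -0.93 in each. MUC1 gave 0.68 in MDAMB231 and 1.94 in MDA231 libraries, a difference that was not tested.

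**Figure D4:**
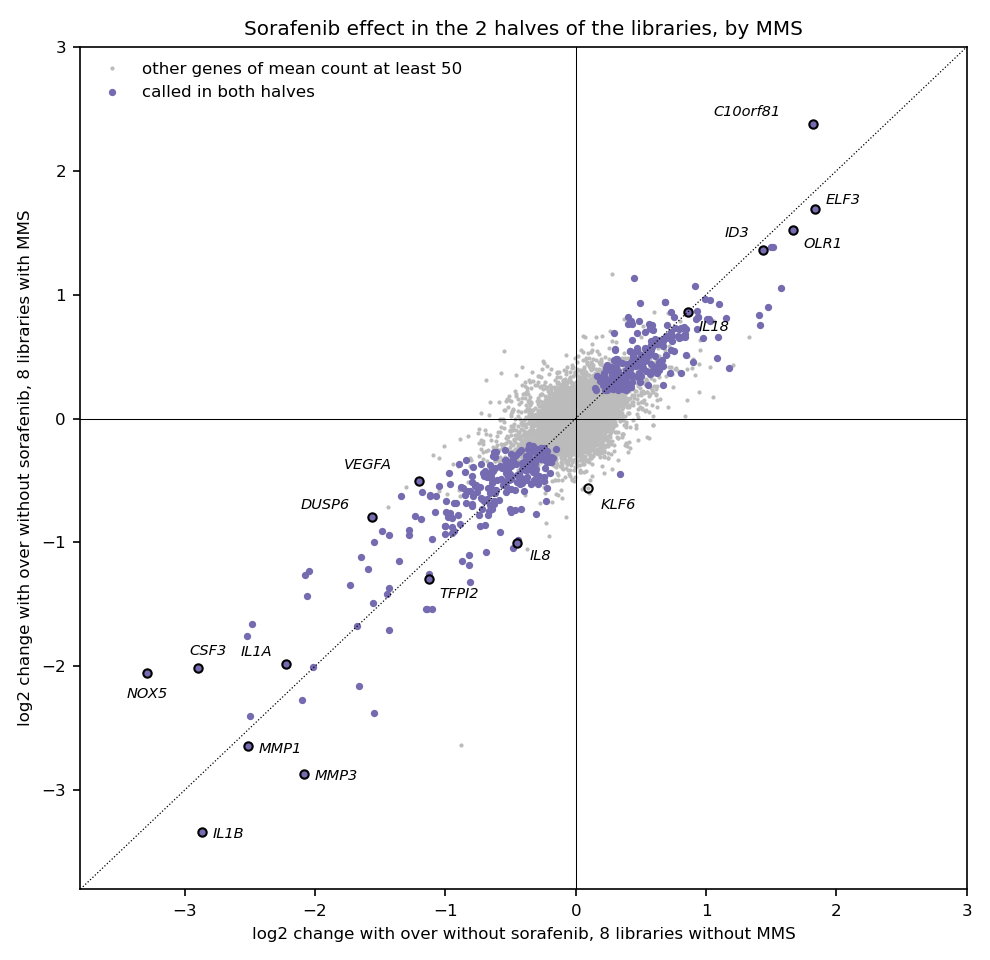
Log2 change with over without sorafenib in the 8 libraries without MMS (horizontal) and in the 8 with MMS (vertical), for genes with a mean count of at least 50; purple points are called in both sets, and the dotted line marks equal change. Named genes such as MMP1, OLR1, IL18 and ID3 lie near the line, VEGFA, DUSP6, CSF3 and NOX5 above it, and IL8 and KLF6 below it.

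Few genes passed a test for a difference of the effect between conditions. A test of any difference among the 4 conditions called 33 genes (0.237%), of which 24 also had a main effect. A test of the effect with MMS minus that without it called 37 (0.265%), 23 of them positive and 14 negative. A test of 24 h minus 8 h called DUSP10, an inhibitor of stress kinases, and ANGPTL4 (0.0143%). At an unadjusted p under 0.05 these edgeR tests gave 1676, 1504 and 1715 of 13948 genes, in the same order. A gene that was not called may thus still differ between conditions. Counts of this kind depended strongly on single libraries. The count by MMS lay between 2 and 675 when 1 library was left out, with 675 without replicate 2 of sorafenib followed by MMS at 8 h, 43 without its replicate 1, and 2 without replicate 1 of sorafenib at 8 h. The count of any difference lay between 2, without replicate 2 of MMS at 8 h, and 1124, without replicate 2 of sorafenib followed by MMS at 8 h.

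DUSP6 was among the genes that differed. Its log2 change was -1.25 at 8 h and -1.88 at 24 h without MMS, and -0.69 at 8 h and -0.901 at 24 h with MMS, and the effect with MMS minus that without was 0.77 ± 0.07, adjusted p = 3.31e-05. DUSP6 stood at 93.0, 84.5, 105 and 104 CPM with sorafenib and MMS, against 149, 137, 211 and 181 CPM with MMS alone. Without MMS it stood at 147, 144, 117 and 113 CPM with sorafenib, against 372, 322, 421 and 425 CPM with DMSO. The levels with sorafenib were thus low with or without MMS, while those without sorafenib were lower under MMS. The difference passed the threshold in all 16 fits that left out 1 library.

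Of the genes named here KLF6 also passed in all 16. It changed by 0.03 at 8 h and 0.17 at 24 h without MMS, and -0.85 at 8 h and -0.28 at 24 h with MMS. The effect with MMS minus that without was -0.66 ± 0.08, adjusted p = 0.000459, and its main effect was not called (log2 change -0.23 ± 0.10, adjusted p = 0.121). Its level was 236 and 312 CPM with sorafenib and MMS at 8 h, against 455 and 528 CPM with MMS alone, and sorafenib alone at 8 h gave 291 and 328 CPM, against 275 and 334 CPM with DMSO. VEGFA fell less with MMS than without (log2 difference 0.69 ± 0.10, adjusted p = 0.00857). Its changes were -1.25 at 8 h and -1.16 at 24 h without MMS, and -0.24 at 8 h and -0.79 at 24 h with MMS. The adjusted p of the difference was up to 0.0548 without replicate 1 of sorafenib at 8 h or replicate 2 of MMS at 8 h, the 2 fits in which it did not pass. CSF3 also fell less with MMS (log2 difference 0.88 ± 0.14, adjusted p = 0.0113), and did not pass without replicate 1 of sorafenib at 8 h or replicate 1 of sorafenib followed by MMS at 24 h, where adjusted p was at most 0.069. ADAMTS1, a matrix protease, changed by 0.07 at 8 h and 0.14 at 24 h without MMS, and -1.02 at 8 h and -0.16 at 24 h with MMS. Its difference by MMS passed in 10 of the 16 fits without 1 library, and that of LOC647979, listed by gene ID in RefSeq as the long non-coding RNA NORAD (log2 difference -0.44 ± 0.07, adjusted p = 0.0113), in 12. Of other ERK output genes SPRY4 (log2 difference 0.502 ± 0.10, adjusted p = 0.0296) and ETV1 (log2 difference 0.54 ± 0.10, adjusted p = 0.0296) fell less with MMS. So did ETV4 (log2 difference 0.504 ± 0.10, adjusted p = 0.0468). These passed in 7, 6 and 6 of those fits, in the order given. IL8 fell more with MMS (log2 difference -0.57 ± 0.11, adjusted p = 0.0345), which passed in 5 of the 16. For DUSP4 (log2 difference 0.13 ± 0.07, adjusted p = 0.494), IER3 (log2 difference 0.04 ± 0.08, adjusted p = 0.927) and PHLDA1 (log2 difference 0.13 ± 0.07, adjusted p = 0.559) the difference did not pass the threshold.

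**Figure D5:**
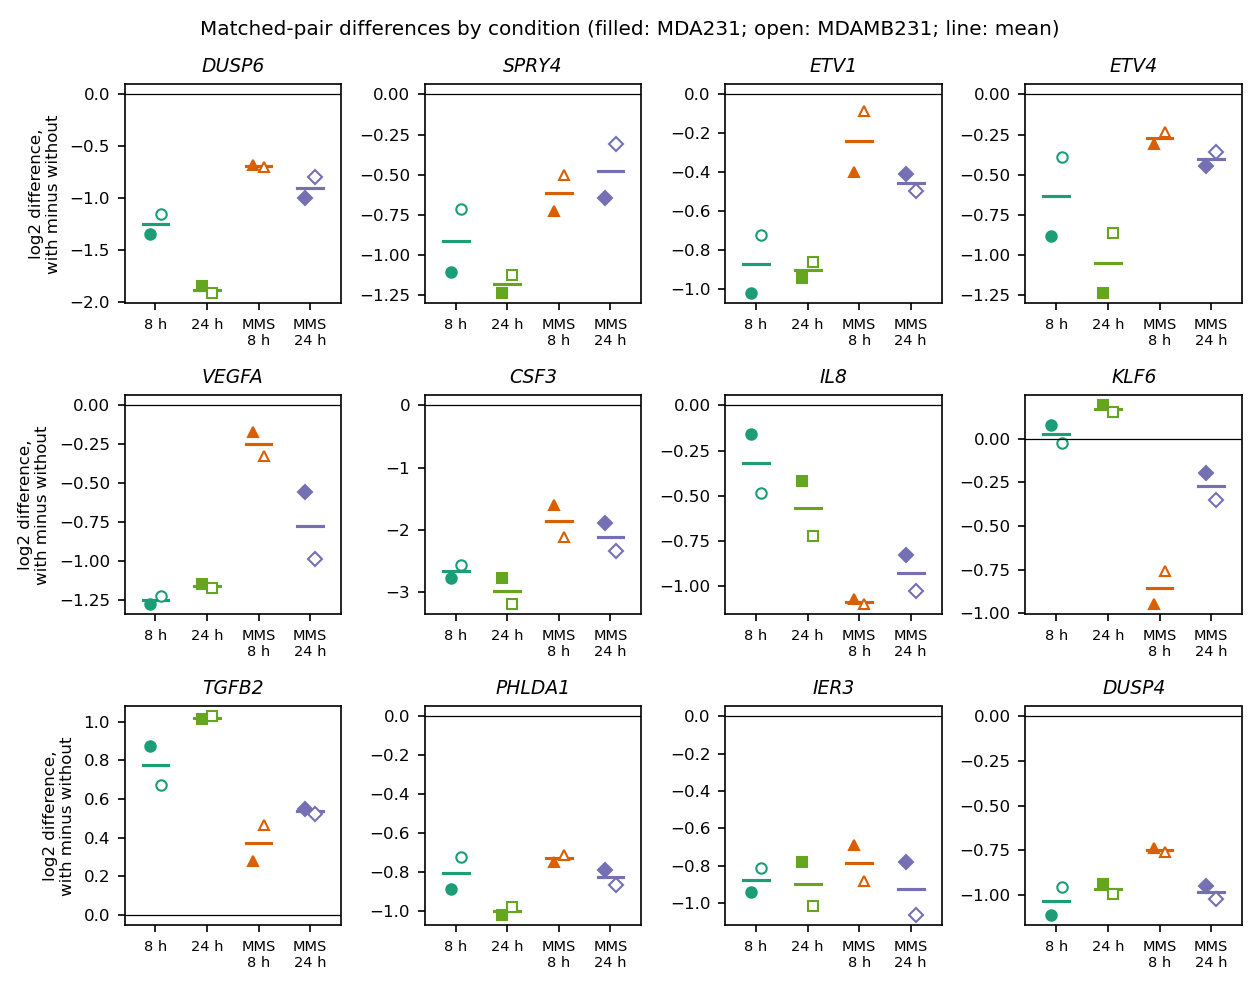
Log2 difference, with minus without sorafenib, in each matched pair for 12 genes; the horizontal axis gives the 4 conditions, filled symbols are MDA231 and open symbols MDAMB231 pairs, and lines are means of 2. DUSP6, SPRY4, ETV1, ETV4, VEGFA and CSF3 lie nearer 0 with MMS, IL8 and KLF6 lie lower with MMS, TGFB2 rises less, and PHLDA1, IER3 and DUSP4 lie below -0.6 in all 8 pairs.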

How the data were processed

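RNA-seq of 16 MDA-MB-231 libraries was analysed. Per the submitters' processing notes the authors used CASAVA 1.8.2, TopHat2 2.0.8b, the genome build hg19 and HTSeq; the annotation, the counting mode and the use of strand are not given in the sources used here. The deposited values are raw read counts per gene row. The 5 counter rows of HTSeq were left out of library sizes and tests; reads assigned to no feature came to 6.88% to 7.94% of all rows' counts, ambiguous ones to 1.03% to 1.18% and those with several alignments to 29.5% to 31.5%. Genes near the filter on low counts are less precisely measured.

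Computed here: edgeR 4.0.16 (R 4.3.3, limma 3.58.1) with TMM factors, filterByExpr by group (13948 of 23228 rows kept) and glmQLFit and glmQLFTest, with Benjamini-Hochberg adjustment over all tested genes. The main model held sorafenib, time, MMS, time by MMS and title start. Effects within conditions and their differences came from 1 mean per group plus title start. The pair differences use log2 of CPM plus 0.5. The main model was tested on simulated data with planted changes.

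Named genes were the 12 largest rises and 12 largest falls averaging at least 50 counts, with the same direction in all 8 pairs, up to 4 called members of each list with the smallest p, IL8, IL6, VEGFA, BRAF, KDR, FLT1 and PDGFRB, the 6 genes with the smallest p for a difference among conditions, and the 5 smallest p in each direction; some of the genes so chosen are not reported here, and further members of lists were named after their values were seen. The comparison, the gene lists and the tests were chosen with earlier results of these data known. Gene names were matched to RefSeq: 11957 of the tested names were current symbols, 1462 older ones and 529 unmatched, of which 395 carry a RefSeq gene ID in their LOC name.

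Replicate numbers follow the title starts. Deviations from group means of same-numbered libraries correlated in all 28 pairs of groups (0.442 to 0.819, median 0.709), so the title start was kept as a block. As alternatives the fits were repeated in DESeq2 1.42.0, with RLE factors, without the filter, for genes averaging at least 50 counts, with 1 mean per group, with no block, in sets of 8 libraries and with each library left out.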

Additional observations from a re-analysis of the deposited data

Results flagged for a closer look

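Each of 8 matched pairs gave a log2 difference, with minus without sorafenib, and in 7 of 151 genes screened 1 pair stood far from the other 7. Chance flags about 1 in 20 such sets, so a count of this size is about what chance gives. The pair of sorafenib followed by MMS at 8 h, replicate 1, the library that stood apart, was the outlying one in 4 of them. It gave -0.749 for TNFAIP3 (nearest other pair -0.433), -0.732 for TIPARP (-0.424), 0.523 for the kinase gene MAPK3 (0.23), and -0.033 for KIF23 (0.184). In the pair of sorafenib and MMS at 24 h, replicate 1, RASA1 gave -0.053 (nearest -0.251), and in that of replicate 2 NPC2 gave 0.077 (nearest 0.237). In the pair of sorafenib at 24 h, replicate 1, CCNE1 gave -0.636 (nearest -0.44).

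The sorafenib effect differed by MMS, tested as the effect with MMS minus that without by edgeR, in 19 named genes. The difference was positive for DUSP6 (0.772), CSF3 (0.881), VEGFA (0.687), CST1 (0.824), SPRY4 (0.502), ETV1 (0.541), ETV4 (0.504), TIMP3 (0.504) and JAG1 (0.417), all of which fell less with MMS. It was also positive for LPXN (0.49), SLC20A1 (0.529) and TNFSF15 (0.814). It was negative for IL8 (-0.569) and DUSP1 (-0.465), which fell more with MMS, for TGFB2 (-0.441), which rose less, and for KLF6 (-0.662), ADAMTS1 (-0.697), INHBA (-0.485) and LOC647979 (-0.44). With each of the 16 libraries left out in turn, the difference passed in all 16 fits for DUSP6 and KLF6, in 9 to 15 for SLC20A1, VEGFA, CSF3, LPXN, LOC647979, TGFB2, TIMP3, ADAMTS1, CST1, DUSP1 and INHBA, in 6 or 7 for SPRY4, ETV1 and ETV4, and in 5 for IL8, JAG1 and TNFSF15. By time, tested as 24 h minus 8 h, ANGPTL4 differed by -1.366 and DUSP10 by 0.583. The longer exposure of cells with both agents cannot be told apart from MMS in the first set.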

How the results depend on the processing

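The main count of 2207 genes was 1052 with no replicate block, 630 in the libraries with MMS alone, 1198 at 24 h alone, 985 in the MDA231 libraries alone and 1141 in the MDAMB231 libraries alone; those sets have 8 libraries each. It was 2206 with RLE factors, 2294 with DESeq2, 2134 with no filter, 1992 at a mean count of at least 50 and 2431 with 1 mean per group, and 1815 to 2508 when each library was left out in turn. Within conditions the counts with no replicate block were 55 at 8 h and 114 at 24 h without MMS, and 87 at 8 h and 17 at 24 h with MMS. Leaving out 1 library gave 235 to 983, 363 to 1368, 266 to 2830 and 107 to 431 in the same order. Of the 33 genes with a difference among conditions, edgeR with no replicate block called 0 (441 at an unadjusted p under 0.05), DESeq2 called 165, and leaving out 1 library gave 2 to 1124. For the difference by MMS, whose alternatives were chosen after seeing the data, the 37 calls became 1 with no replicate block and 2 to 675 with 1 library left out. Values changed sign in 4 genes, none of them called: IL6 was 0.0585 in the MDA231 libraries alone, KLF6 0.0981 and ADAMTS1 0.103 in the libraries without MMS alone, and DUSP10 0.0896 at 24 h alone. Of 147 genes named and called, 139 were called in all 16 fits without 1 library, and none changed sign under any alternative run; 26 lost the call with no replicate block, 31 with MMS alone, 4 with DESeq2 and 0 with RLE factors. With 2 libraries per group, effects within a condition rest on few values.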
